A study of Homo sapiens with 5 samples.

Results

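Integrins and laminins are the receptors and the ligands of cell attachment to the basement membrane, and their mRNA levels were compared between RPE1 cells given doxorubicin and cells given DMSO. The genes were taken by symbol, as all rows of the count table named for an integrin α subunit, an integrin β subunit or a laminin α, β or γ chain. This gave 38 genes of 26485, of which 18 encode α integrins, 8 encode β integrins and 12 encode laminin chains. The default filter for low counts kept 30 of the 38, beside 14187 genes of the whole table.

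RPE1 is an immortalized line of human retinal pigment epithelial cells, labelled wild type. DMSO, the solvent, was given to 2 cultures, 0.2 μM doxorubicin to 2 and 0.34 μM doxorubicin to 1, all for 18 h, and poly-A RNA of each was sequenced. Doxorubicin is an anthracycline that intercalates into DNA and traps topoisomerase II. All 5 libraries came from the same cell line, so that nothing here reaches beyond it. The following sections join the doxorubicin libraries into a group of 3, as the study did.

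An integrin is a pair of one α and one β subunit that spans the membrane, binds matrix proteins outside the cell and couples to actin through talin and other adaptors inside it. A laminin is a trimer of one α, one β and one γ chain that assembles into the sheet of the basement membrane, and the chains are named in the trimer's number (laminin-511 holds α5, β1 and γ1). The retinal pigment epithelium sits on such a sheet, which is part of Bruch's membrane, and attaches to it through integrins that bind laminin, collagen and fibronectin.

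Total counts were between 23773061 and 36725345 per library, and the integrin and laminin genes took between 0.890% and 1.24% of them. Both libraries named replicate 2 stood apart from the others for many of these genes, as described with the results. Of 11 pigment epithelium markers, the visual cycle genes RPE65 and RLBP1 and the transport gene TTR had at most 8 counts in any library. The lineage transcription factors MITF and OTX2 were present in every library, at 29.1 to 56.7 and 23.5 to 29.4 CPM, with log2 fold changes of doxorubicin over DMSO of 0.05 and -0.02. The epithelial keratin KRT8 was between 346 and 369 CPM (counts relative to the size of each library) in DMSO and between 636 and 661 in doxorubicin. The labelled cell type was thus met in every group by some of its defining genes and not by others, but their levels were not all alike. Log2 fold changes of the other tested markers were 2.29 for PMEL, 1.88 for BEST1, 0.87 for KRT8, 0.63 for KRT18 and -1.04 for SERPINF1. The adjusted p-values in edgeR were 0.0823 for BEST1, 0.0133 for KRT8, 0.136 for KRT18 and 0.355 for SERPINF1. PMEL, BEST1 and SERPINF1 were low, at most 3.91 CPM in any library. PMEL had 7 and 5 counts in DMSO, 22 and 32 at 0.2 μM and 46 at 0.34 μM. It passed the filter only through its doxorubicin libraries, so its fold change is a description and no p-value is given for it. The 11 markers together, mostly KRT8 and KRT18, summed to between 638 and 784 CPM in DMSO and between 1051 and 1249 in doxorubicin, and 0 of the 7 tested passed edgeR's adjusted p of 0.01. In bulk RNA such as this, fewer cells of a type and less RNA per cell cannot be told apart.

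The genes' starts are described before the levels, for the β chains and the α3 chain of laminin to which the comparisons below return. RefSeq windows on GRCh38.p14, each from 250 bases before to 50 bases after an annotated start, were at hand for 26 of the 38 genes. They are printed on the strand of the gene, in lower case with motif matches in capitals. The motifs searched on both strands were GGGCGG (the GC box bound by SP1), TGANTCA (the site of AP-1), GGAATG (the core of TEAD sites), TATAAA and the p53 half-site. LAMB2 and LAMB1 are shown because their chains replace each other in the trimer, and LAMA3 because it holds more AP-1 letters than the others printed. The LAMB2 window is chr3:49133001-49133300 on the minus strand, the LAMB1 window is chr7:108003112-108003411 on the minus strand, and the LAMA3 window is chr18:23872770-23873069 on the plus strand, inside the gene and not at its outermost start.
LAMB2: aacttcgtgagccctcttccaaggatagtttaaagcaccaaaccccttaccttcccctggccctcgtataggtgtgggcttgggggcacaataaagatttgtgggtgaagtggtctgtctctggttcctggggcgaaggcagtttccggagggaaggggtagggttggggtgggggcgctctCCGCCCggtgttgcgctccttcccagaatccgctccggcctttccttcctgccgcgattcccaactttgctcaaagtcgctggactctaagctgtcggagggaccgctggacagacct
LAMB1: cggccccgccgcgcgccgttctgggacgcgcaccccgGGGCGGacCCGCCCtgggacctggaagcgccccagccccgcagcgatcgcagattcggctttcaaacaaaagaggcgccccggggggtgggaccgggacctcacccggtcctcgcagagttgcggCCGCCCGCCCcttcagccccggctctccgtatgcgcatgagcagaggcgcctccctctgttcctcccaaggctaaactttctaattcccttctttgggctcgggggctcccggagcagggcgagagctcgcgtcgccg
LAMA3: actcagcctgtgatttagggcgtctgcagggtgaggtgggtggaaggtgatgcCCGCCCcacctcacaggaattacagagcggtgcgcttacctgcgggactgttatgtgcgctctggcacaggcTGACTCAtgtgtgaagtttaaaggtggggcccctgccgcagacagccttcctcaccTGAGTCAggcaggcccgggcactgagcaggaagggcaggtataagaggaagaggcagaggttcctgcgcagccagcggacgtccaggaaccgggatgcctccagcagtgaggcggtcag

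The LAMB2 window held 1 GC box. The LAMB1 window held 4, of which 1 pair overlapped each other. In LAMA3, 2 AP-1 matches stood beside 1 GC box. Of the 26 windows, 14 held a GC box (53.8%), against 44.6% of all 27305 promoters. AP-1 letters were in 2 windows, those of ITGA5 and LAMA3 (7.69%, against 7.76% of all promoters), TEAD letters in 4 (15.4%, against 14%) and TATAAA in 1 (3.85%, against 12%). The p53 half-site was in 0 of the 26 windows, against 6.54% of all promoters, which says only that these letters were not in these windows. No match of 1 of the AP-1, GC box and TEAD motifs overlapped a match of another in the 26 windows. The median GC content was 61.5% over the 26 windows and 58.3% over all promoters.

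What RPE1 cells expressed was read from CPM per kb, which divides each gene's level by the length of its main transcript and so lets genes be compared. In DMSO, ITGB1, the β subunit shared by most matrix-binding integrins, was highest at 987 CPM per kb. It was followed by ITGA3 (337), the α subunit of the laminin receptor α3β1, and by ITGA5 (258), the α subunit of the fibronectin receptor α5β1. The laminin chains LAMC1 (102) and LAMB1 (94.8) stood next, together with ITGB5 (95.9), a β subunit that pairs with αv and binds vitronectin. These 6 genes were also the 6 highest in doxorubicin, in the same order: ITGB1 918, ITGA3 559, ITGA5 245, LAMC1 131, ITGB5 128 and LAMB1 96.7 CPM per kb. The neighbours LAMC1, ITGB5 and LAMB1 lay close together in DMSO, and their order there is within the spread between libraries.

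**Figure D1:**
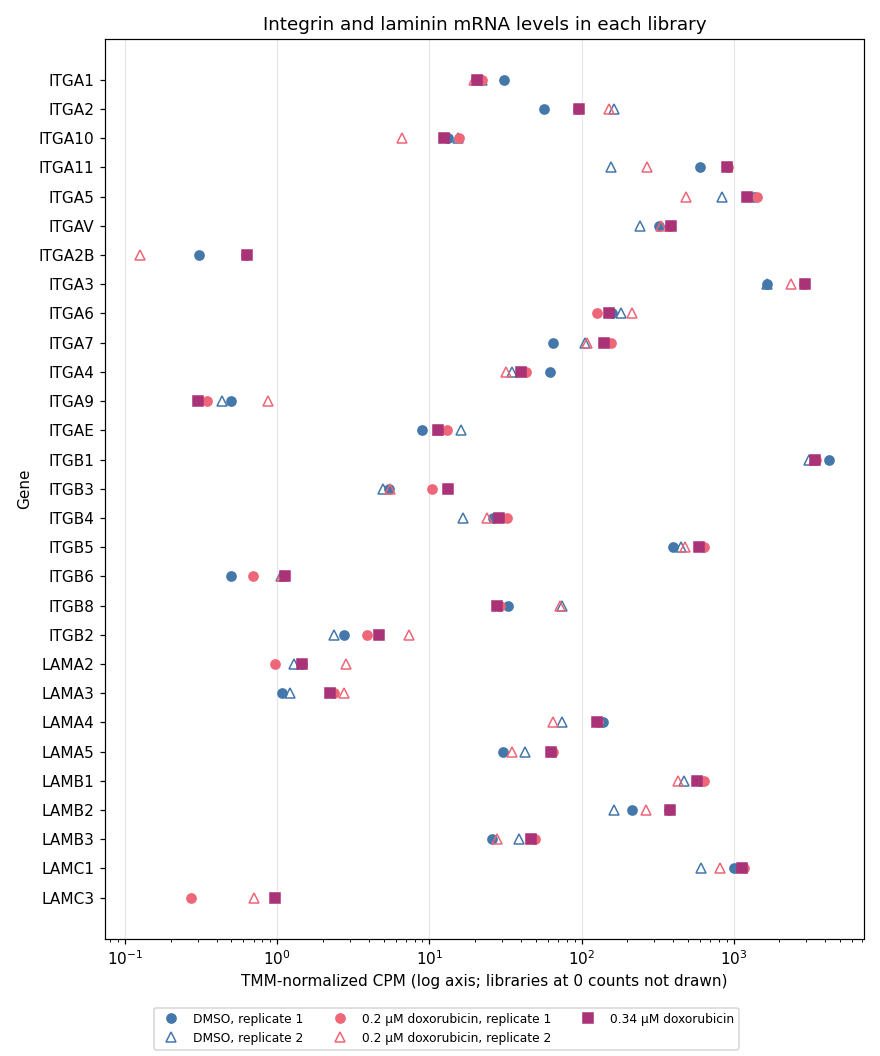
TMM-normalized CPM (log axis) of 29 tested integrin and laminin genes in each of the 5 libraries, with circles for replicate 1, open triangles for replicate 2 and squares for the single 0.34 μM library. ITGA3 lay at 1650.05 and 1647 CPM in DMSO and between 2374 and 2921 in doxorubicin, whereas for ITGA11 and ITGA5 both replicate 2 libraries lie below all the others.

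Laminin α chains were scarce by comparison. Summed over the family, they reached between 12.6 and 23.7 CPM per kb across all 5 libraries, against between 121 and 191 for the β chains and between 79.0 and 148 for the γ chains. LAMA4, the chain of laminin-411, was the main one at 14.7 CPM per kb in both groups. LAMA5, the chain of laminin-511 that is common in epithelial basement membranes, was at 3.18 in DMSO and 4.77 in doxorubicin.

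The untested 8 genes had at most 20 counts in any library. ITGAX had 0 counts in every library. ITGAL, ITGAM, ITGAD and ITGA8 had at most 5 counts each, LAMA1 at most 2, LAMB4 at most 10 and ITGB7 at most 20. ITGAL, ITGAM, ITGAX and ITGAD encode the leukocyte α subunits that pair with β2, and ITGB7 the β subunit of gut-homing lymphocytes. They are left out of the counts that follow. In an edgeR fit with no filter, which gave a value for 7 of the 8, 0 were called, and the lowest adjusted p was 0.255 for ITGB7, whose counts were 20 and 8 in DMSO, 4 and 7 at 0.2 μM and 7 at 0.34 μM.

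The next question was which of the 30 tested genes differed between doxorubicin and DMSO. In the quasi-likelihood test of edgeR, with p-values adjusted by Benjamini-Hochberg over all genes, 0 of the 30 passed an adjusted p of 0.01, where 4.02% of all genes tested did (1.29% higher and 2.73% lower). limma voom also called 0 of the 30, against 3.71% of all genes (1.12% higher and 2.59% lower). DESeq2 called 3, all higher in doxorubicin (ITGA3, LAMB2 and LAMC3), which is 10% of the 30, against 14.6% of all genes (6.59% higher and 8.02% lower). At a looser adjusted p of 0.05 edgeR called 2, ITGA3 and LAMC3, both higher, against 13.6% of all genes (6.1% higher and 7.48% lower). At an unadjusted p under 0.05 edgeR gave 6 of the 30 (20%), all higher, and 4368 of all genes (30.8%). Counted over both directions, the share of integrin and laminin genes called was not above the background with any of the 3 tools. Counted as higher only, DESeq2's 10% stood beside 6.59% of all genes, and it rests on 3 genes.

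The direction of the values was uneven. Fitted log2 fold changes were above 0 for 21 of the 30 genes and below 0 for 9, with a median of 0.35 against 0.01 over all genes tested. In 9 of the 30 genes (30%), every doxorubicin library was above every DMSO library, and in 0 every one was below. Over all genes 47.7% did not overlap, with 24.3% higher and 23.4% lower. These 9 genes were ITGA3, ITGA7, ITGAV, ITGB2, ITGB3, ITGB5, LAMA3, LAMB2 and LAMC3. LAMC3 and ITGA2B passed the filter only through their doxorubicin libraries, so their place in these counts, in the median and among the calls was set by the group in which they are high.

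**Figure D2:**
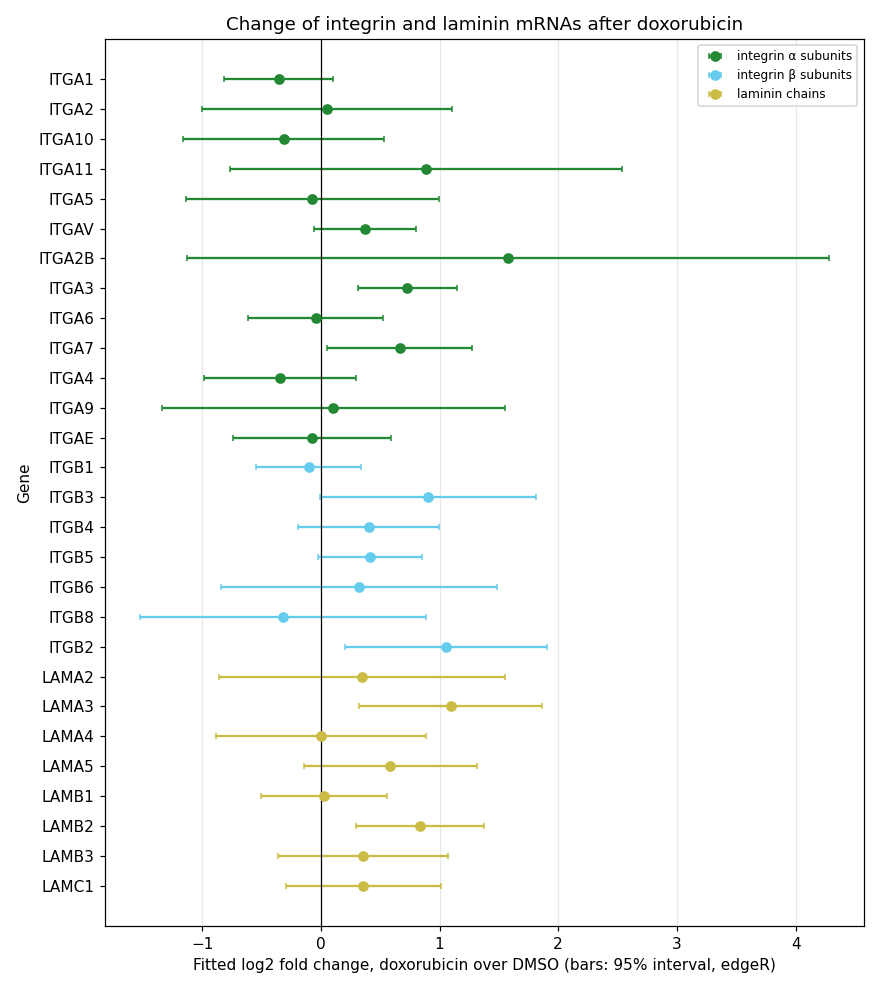
Fitted log2 fold change of doxorubicin over DMSO for 28 tested genes, by class, with bars for the 95% interval of edgeR's fit. The intervals of ITGA3 (0.31 to 1.15), ITGA7 (0.06 to 1.27), ITGB2 (0.20 to 1.90), LAMA3 (0.32 to 1.87) and LAMB2 (0.30 to 1.37) lie above 0, the others include 0, and LAMC3 is left out because its DMSO libraries had 0 counts.

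ITGA3 (chr17:50056110-50090481 on GRCh38, overlapped by no other annotated gene) encodes the α3 subunit. It was at 1650.05 and 1647 CPM in the DMSO libraries, at 2898 and 2374 in the 0.2 μM libraries and at 2921 in the 0.34 μM library. The doxorubicin libraries were all higher, and the DMSO pair differed by much less than the treatments did. The means were 1648 ± 2.504 (SD, n = 2) and 2731 ± 309 (SD, n = 3), a log2 fold change of 0.73 with a standard error of 0.18. edgeR's adjusted p was 0.0401 and DESeq2's 0.000311. Leaving out 1 library at a time gave log2 fold changes between 0.68 and 0.82, with edgeR's adjusted p between 0.0356 and 0.196. The other laminin-binding α subunits were ITGA6, which pairs with β1 or with β4 of the hemidesmosome, and ITGA7, best known from muscle. ITGA6 had a log2 fold change of -0.04 with overlapping groups.

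ITGA7 was at 65.3 and 105 CPM in DMSO, 156 and 108 at 0.2 μM and 141 at 0.34 μM. The groups did not overlap, but the upper DMSO library and the lower 0.2 μM library almost met. The log2 fold change was 0.66 with a standard error of 0.26 and an adjusted p of 0.134 in edgeR, and it ran from 0.35 to 1.03 when single libraries were left out. ITGA7 overlaps 3 other annotated genes, whose reads its counts could include.

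LAMB2, the laminin β2 chain (chr3:49121114-49133050, overlapping LOC124909377), was at 216 and 165 CPM in DMSO, 373 and 265 at 0.2 μM and 379 at 0.34 μM. All doxorubicin libraries were above both DMSO libraries, and replicate 2 was the lower one in each pair. Means were 190.02 ± 36.1 (SD, n = 2) and 339 ± 64.5 (SD, n = 3), with a log2 fold change of 0.84 and a standard error of 0.22. The adjusted p was 0.0551 in edgeR and 0.00459 in DESeq2, and without single libraries the log2 fold change was between 0.64 and 1.04.

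LAMB1, the β1 chain that β2 replaces in some laminins, was at 603 and 468 CPM in DMSO, 638 and 428 at 0.2 μM and 572 at 0.34 μM. Its groups overlapped, with a log2 fold change of 0.03 and a 95% interval from -0.50 to 0.56. LAMB3, the β3 chain of laminin-332, had a log2 fold change of 0.36, and its groups overlapped as well.

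Read as shares of the laminin β chains, the same values separated the treatments. LAMB2 made up 25.1% and 23.8% of the β chain CPM per kb in the DMSO libraries, 34.3% and 35.9% in the 0.2 μM libraries and 37.1% in the 0.34 μM library. The mean share was 24.4% ± 0.886 (SD, n = 2) in DMSO and 35.8% ± 1.39 (SD, n = 3) in doxorubicin, a difference of 11.4 percentage points. LAMB1 went from 69.4% ± 1.72 to 58.1% ± 1.47, a difference of -11.4 percentage points. Both differences exceeded the spread within each group, and the replicate 2 libraries, which were low for both genes, did not stand apart in the shares. The shares of a family add up to its whole, so the lower LAMB1 share mirrors the higher LAMB2 share and is not a separate result. The level of LAMB1 itself was 94.8 CPM per kb in DMSO and 96.7 in doxorubicin. No test was run on the shares. LAMB3 held 6.11% on average in both groups. With the union of all exons as length, LAMB2 held 45.2% and 41.7% in DMSO and 54.7% to 57.5% in doxorubicin. LAMB1 then held 46.7% and 43.8% in DMSO and 32.0% to 34.5% in doxorubicin. Which chain had the larger share in doxorubicin thus depends on the length used.

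**Figure D3:**
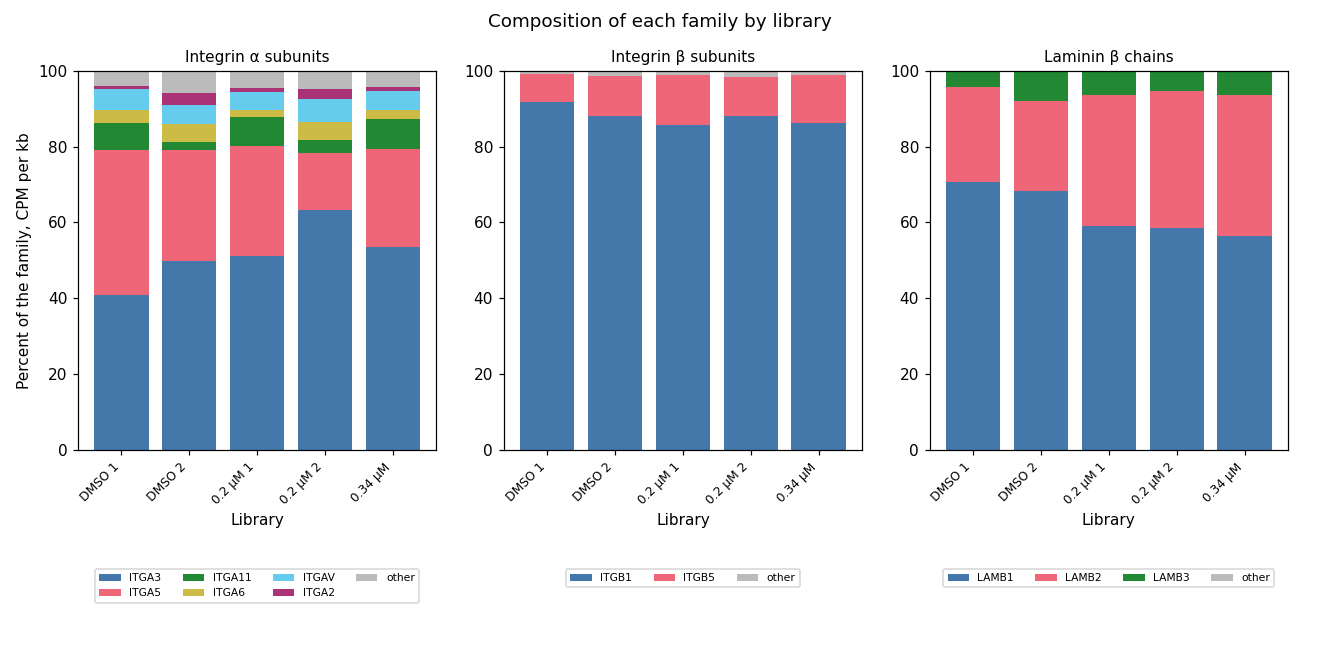
Percent of the CPM per kb of each family (integrin α subunits, integrin β subunits, laminin β chains) held by each gene, as stacked bars from 0 to 100 in each of the 5 libraries. The LAMB2 part of the laminin β bars is between 23.8% and 25.1% in DMSO and between 34.3% and 37.1% in doxorubicin, and the ITGA3 part of the α bars is highest in the replicate 2 library at 0.2 μM, where the ITGA5 part is lowest.

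LAMC3, the γ3 chain known from the retina and brain (chr9:131009174-131094473, overlapping 2 other annotated genes), had 0 and 0 counts in DMSO, 7 and 17 at 0.2 μM and 35 at 0.34 μM. Counts were low in every library, and present only in the doxorubicin ones. Pooled, the doxorubicin libraries held 0.684 CPM, at least 11.8-fold higher than the floor of 3 counts over both DMSO libraries (0.0580 CPM). Since these libraries alone brought it into the test, its call by DESeq2 is given as a description. The fits without the replicate 2 library at 0.2 μM and without the 0.34 μM library no longer held it.

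LAMC1, the γ1 chain of most laminins, was at 1011 and 610 CPM in DMSO, 1166 and 813 at 0.2 μM and 1136 at 0.34 μM. Its groups overlapped, and its log2 fold change of 0.36 had a 95% interval from -0.30 to 1.01. With DMSO replicate 1 left out it was 0.76, and with DMSO replicate 2 left out 0.02. It made up between 97.5% and 99.1% of the γ chain CPM per kb in all 5 libraries.

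Among the laminin α chains, LAMA3, the chain of laminin-332 in anchoring complexes of epithelia, was at 1.07 and 1.21 CPM in DMSO, 2.36 and 2.74 at 0.2 μM and 2.23 at 0.34 μM. The groups did not overlap, on counts between 28 and 81 per library. The log2 fold change was 1.09 with a standard error of 0.32, and the adjusted p was 0.0696 in edgeR and 0.0513 in DESeq2. Its window with 2 AP-1 matches is printed above. LAMA5 was at 30.3 and 42.3 CPM in DMSO, 65.0 and 35.0 at 0.2 μM and 63.4 at 0.34 μM, so that 1 doxorubicin library lay among the DMSO ones. LAMA4 had a log2 fold change of 0.00 and LAMA2 of 0.35, both with overlapping groups.

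The integrin β subunits include the most abundant gene of the set. ITGB1 was at 4232 and 3140.15 CPM in DMSO, 3495 and 3361 at 0.2 μM and 3433 at 0.34 μM, so the doxorubicin libraries lay inside the DMSO range. Its log2 fold change was -0.10, with a 95% interval from -0.55 to 0.34. ITGB5 was at 398 and 454 CPM in DMSO, 634 and 475 at 0.2 μM and 593 at 0.34 μM. Its groups did not overlap, and its log2 fold change of 0.41 (95% interval -0.03 to 0.85) had an adjusted p of 0.186 in edgeR.

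ITGB3, which pairs with αv in many cells and with αIIb in platelets, was at 5.46 and 4.97 CPM in DMSO, 10.5 and 5.53 at 0.2 μM and 13.2 at 0.34 μM. The replicate 2 library at 0.2 μM was close to the DMSO ones. The log2 fold change was 0.90 with a standard error of 0.38 and an adjusted p of 0.165 in edgeR, and it was between 0.63 and 1.18 without single libraries. The platelet markers GP9 and PF4 were at 0 in every library, and the platelet list of 3 genes summed to between 1.03 and 1.29 CPM in DMSO and between 0.928 and 1.83 in doxorubicin. ITGA2B, which encodes αIIb, had 8 and 0 counts in DMSO, 16 and 3 at 0.2 μM and 23 at 0.34 μM, with overlapping groups.

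ITGB2, the β2 subunit of leukocyte integrins, was at 2.75 and 2.35 CPM in DMSO, 3.87 and 7.36 at 0.2 μM and 4.68 at 0.34 μM. The groups did not overlap, on counts between 60 and 177. The log2 fold change was 1.05 with a standard error of 0.36 and adjusted p-values of 0.0979 in edgeR and 0.0471 in DESeq2. The leukocyte list of 6 genes summed to between 0.191 and 0.313 CPM in DMSO and between 1.24 and 2.42 in doxorubicin, with CD3E and MS4A1 at 0 in every library. This sum was mostly PTPRC (CD45), at 0.191 and 0.274 CPM in DMSO, 0.967 and 2.20 at 0.2 μM and 1.98 at 0.34 μM. PTPRC had 5 and 7 counts in DMSO, 25 and 53 at 0.2 μM and 72 at 0.34 μM. It passed the filter only through its doxorubicin libraries, so no p-value is given for it. What part these counts have in the ITGB2 values was not tested. ITGB2 also overlaps an antisense gene, and the sources used here do not give whether the counting used strand. ITGB4, ITGB6 and ITGB8 had log2 fold changes of 0.40, 0.32 and -0.32, each with overlapping groups.

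Among α subunits that bind the arginine-glycine-aspartate motif of fibronectin and vitronectin, ITGAV was at 323 and 244 CPM in DMSO, 381 and 334 at 0.2 μM and 386 at 0.34 μM. The doxorubicin libraries were all higher, the lowest by little, and the log2 fold change of 0.37 had a 95% interval from -0.06 to 0.80. ITGA5 was at 1353 and 840 CPM in DMSO, 1419 and 488 at 0.2 μM and 1221 at 0.34 μM. The 0.2 μM libraries enclosed all the others, and the log2 fold change of -0.07 had a 95% interval from -1.14 to 0.99.

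In the shares of α subunits, ITGA3 held 40.8% and 49.8% in DMSO, 51.2% and 63.2% at 0.2 μM and 53.6% at 0.34 μM. ITGA5 held 38.5% and 29.2% in DMSO, 28.8% and 14.96% at 0.2 μM and 25.8% at 0.34 μM. Neither overlapped between the groups, but the replicate 2 library of DMSO and the replicate 1 library of 0.2 μM lay close together for both genes. The mean difference of doxorubicin from DMSO was 10.7 percentage points for ITGA3 and -10.6 for ITGA5. Without DMSO replicate 1 these were 6.23 and -6.02, without DMSO replicate 2 they were 15.2 and -15.3, and without 0.2 μM replicate 2 they were 7.13 and -6.53. ITGA3 and ITGA5 held most of the family, so a higher share of ITGA3 lowers that of ITGA5, and the differences are not independent. The level of ITGA5 itself had a log2 fold change of -0.07.

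The collagen receptors ITGA1, ITGA2, ITGA10 and ITGA11 all had overlapping groups. ITGA1 was at 30.8 and 22.2 CPM in DMSO, 22.3 and 19.5 at 0.2 μM and 20.5 at 0.34 μM, with an adjusted p of 0.268 in edgeR. ITGA11, the α11 subunit of fibroblasts, was at 599 and 156 CPM in DMSO, 917 and 268 at 0.2 μM and 910 at 0.34 μM. It was low in both replicate 2 libraries, and its log2 fold change of 0.89 had a 95% interval from -0.76 to 2.54. Leaving out DMSO replicate 1 gave 2.16, and leaving out DMSO replicate 2 gave 0.21. The fibroblast list of 5 genes summed to 298 and 71.4 CPM in DMSO, 195 and 46.9 at 0.2 μM and 157 at 0.34 μM, also low in replicate 2. This sum was almost only COL1A1, at 287 and 64.5 CPM in DMSO, 189 and 42.7 at 0.2 μM and 151 at 0.34 μM. Each other gene of the list was at most 8.70 CPM, with COL1A2 at most 0.464, so the sum does not stand for the list. Its part in the ITGA11 values was not tested.

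ITGA4, whose α4β1 binds VCAM1 and fibronectin, was at 62.3 and 35.2 CPM in DMSO, 43.0 and 31.9 at 0.2 μM and 40.2 at 0.34 μM, with overlapping groups and an adjusted p of 0.434 in edgeR. ITGAE, which pairs with β7 and binds E-cadherin, was at 8.93 and 16.2 CPM in DMSO, 13.0 and 11.5 at 0.2 μM and 11.4 at 0.34 μM. The doxorubicin libraries lay inside the DMSO range. ITGA9, at most 0.873 CPM, had a log2 fold change of 0.10.

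The median difference between libraries of the same treatment was larger over these genes than over all genes, a comparison given without a test. The absolute log2 difference of the DMSO pair had a median of 0.45 over the 30 genes and 0.36 over all genes tested, and that of the 0.2 μM pair 0.63 against 0.29. The range over the 3 doxorubicin libraries was over 2-fold in 9 of the 30 genes (30%), against 12.5% of all genes. The absolute log2 fold change of the treatment, in contrast, had a median of 0.36 over the 30 genes and 0.38 over all genes. In 19 of the 30 genes (63.3%) the DMSO pair differed by more than the fitted treatment effect, against 49.0% of all genes, and in 21 (70%) the doxorubicin libraries ranged over more than it, against 48.6%.

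The same libraries were often the low ones. In 14 of the 30 genes (46.7%) replicate 2 was the lowest library of the DMSO group and of the doxorubicin group alike, against 24.7% of all genes. These were LAMC1, ITGB1, ITGA5, ITGA11, ITGA2B, ITGB3, ITGA3, ITGB4, ITGA4, ITGAV, LAMB2, ITGA1, LAMA4 and LAMB1. In 5 genes, among them LAMA3, ITGA6, ITGA2 and ITGB8, it was the highest in both, 16.7% against 27.6% of all genes. ITGB8, the β8 subunit of αvβ8, was at 33.1 and 74.3 CPM in DMSO, 29.3 and 72.0 at 0.2 μM and 27.8 at 0.34 μM. Both replicate 2 libraries were above the other 3 whatever the treatment, and the log2 fold change of doxorubicin over DMSO was -0.32. The labels do not say what else the libraries named replicate 2 had in common.

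**Figure D4:**
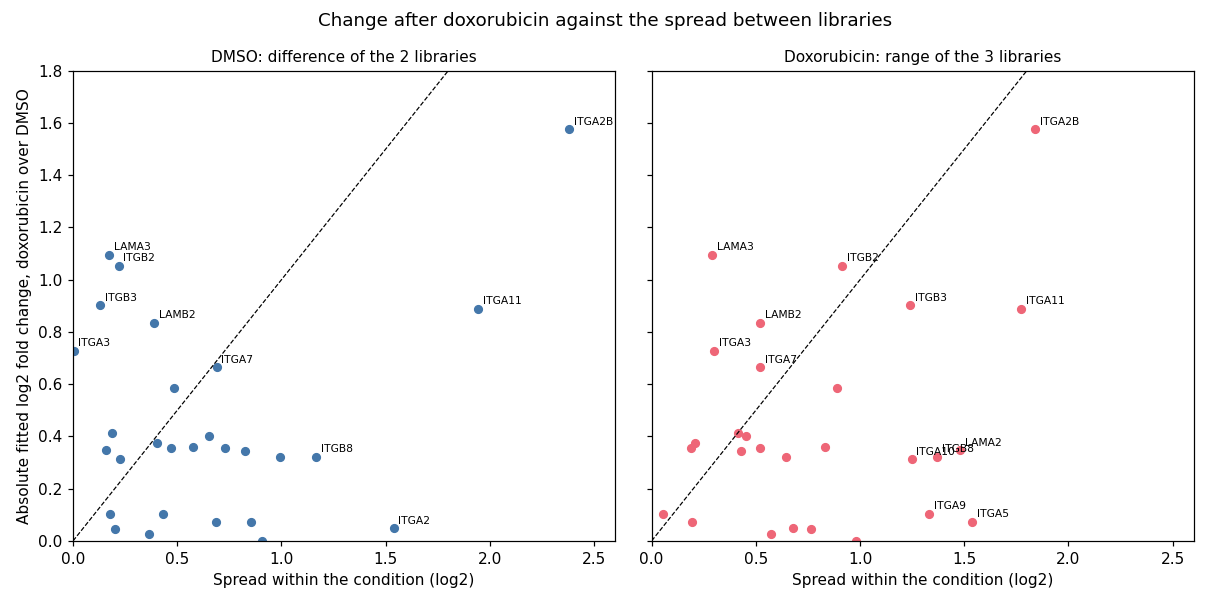
Absolute fitted log2 fold change of doxorubicin over DMSO (vertical axis) against the log2 spread within a condition (horizontal axis), which is the difference of the 2 DMSO libraries on the left and the range of the 3 doxorubicin libraries on the right, with 1 point for each of 28 tested genes and LAMC3 left out. Points below the dashed line of equality varied more within the condition than between the treatments, as ITGA11 and ITGA5 did, whereas ITGA3, LAMB2 and LAMA3 lie above it on both sides.

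Between the doses, the first 0.2 μM library and the 0.34 μM library were close. Their median absolute log2 difference was 0.10 over the 30 genes and 0.11 over all genes, whereas the replicate 2 library at 0.2 μM differed from the 0.34 μM library by 0.49 over the 30 genes and 0.28 over all. In a fit of 3 conditions, 0 of the 30 genes passed an adjusted p of 0.01 between 0.34 μM and 0.2 μM, by edgeR, DESeq2 or limma voom, as did 0% of all genes. At an unadjusted p under 0.05 edgeR and DESeq2 gave 0 of the 30, and 22 and 26 of all genes. The 0.34 μM arm is 1 library, which took its spread from the others in this fit. Against the DMSO libraries that both doses share, ITGA3 had log2 fold changes of 0.68 at 0.2 μM and 0.83 at 0.34 μM, and LAMB2 had 0.75 and 1.00. LAMA3 had 1.16 and 0.97 and ITGB2 1.14 and 0.88, so the direction between the doses differed between genes.

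The other genes of the pathway were taken from 3 lists. Of 16 basement membrane partners and other laminin receptors, 15 were tested and 1 was called by edgeR, higher in doxorubicin (6.67%, against 4.02% of all genes), with a median log2 fold change of 0.40. This was HSPG2, which encodes perlecan, the heparan sulfate proteoglycan of basement membranes. It was at 171 and 141 CPM in DMSO, 594 and 392 at 0.2 μM and 681 at 0.34 μM, so that every doxorubicin library was far above both DMSO libraries. HSPG2 rose by a log2 fold change of 1.83 with a standard error of 0.27 and an adjusted p of 0.00886 in edgeR. The call held without the replicate 2 library at 0.2 μM (adjusted p 0.00913), and without any 1 of the other libraries the adjusted p was between 0.0253 and 0.0517. DESeq2 called 3 genes of this list (20%, against 14.6% of all genes, or 6.59% counted as higher), all higher, with HSPG2 joined by AGRN (agrin, a proteoglycan that binds laminin) at a log2 fold change of 1.32 and SDC4 (syndecan-4, a co-receptor of integrins) at 0.72. The list did not move in 1 direction. In edgeR 7 of the 15 were at an unadjusted p under 0.05 (46.7%, against 30.8% of all genes), 5 higher and 2 lower. The lower ones were DST at a log2 fold change of -0.44 and DAG1 at -0.55, neither called by DESeq2. Groups did not overlap in 8 (53.3%, against 47.7% of all genes), 5 higher and 3 lower.

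Of 35 adaptors and focal adhesion genes, 32 were tested and 0 were called by edgeR, with a median log2 fold change of 0.14. At an unadjusted p under 0.05 edgeR gave 7 of them (21.9%, against 30.8% of all genes), 5 higher and 2 lower. DESeq2 called 3 (9.38%, against 14.6% of all genes), all higher: the actin crosslinkers FLNA and FLNC, which bind β integrin tails, and the kinase PTK2B. Their log2 fold changes in edgeR were 1.04, 1.14 and 1.82, and PTK2B was low, at most 14.8 CPM in any library. TLN1 (talin) and VCL (vinculin), which couple integrins to actin, had log2 fold changes of 0.26 and -0.19 and did not pass either test.

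Of 20 integrin ligands outside the laminins, 18 were tested and 0 were called by edgeR, with a median log2 fold change of 0.62. At an unadjusted p under 0.05 edgeR gave 6 (33.3%, against 30.8% of all genes), of which 5 were higher and 1 lower. DESeq2 called 3 (16.7%, against 14.6% of all genes). It called THBS1 (thrombospondin-1) and MFGE8 (which binds αv integrins) higher, both at a log2 fold change of 1.00 in edgeR, and TGFB1, whose latent form binds αv integrins, lower at -0.57. FN1, the fibronectin bound by α5β1, had a log2 fold change of 0.25 and did not pass either test. The genes named from the 3 lists other than HSPG2 were chosen after their values were seen, as were the integrin and laminin genes outside the naming rule.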

How the data were processed

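The authors mapped poly-A RNA reads to hg38 with STAR, counted reads per gene with featureCounts (Rsubread) and deposited raw counts. Versions, the strand setting and the handling of multi-mapping reads: not given in the sources used here. A deposited table of the authors' own DESeq2 comparison (mean, log2 fold change, statistic and p-values per gene) was not used.

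Counts were tested in R 4.3.3 with edgeR 4.0.16 (quasi-likelihood test, TMM, filterByExpr with min.count 10 and min.total.count 15) on all genes, 3 doxorubicin against 2 DMSO libraries, at a Benjamini-Hochberg adjusted p of 0.01. DESeq2 1.42.0 and limma 3.58.1 (voom) were alternatives, as were normalization, filter, threshold, dose, a replicate block, leaving out each library and transcript length. Standard errors are the absolute log2 fold change over the square root of F. CPM are TMM-normalized, and log2 CPM for the spread between libraries used a prior count of 2. Lengths are of MANE Select transcripts, and positions are RefSeq's on GRCh38, matched by symbol for 38 of 38 genes. The pipeline was tested on simulated data. Counting floors cover counting error only. The study calls the libraries biological replicates. A chi-square of counts per degree of freedom was 117 between the DMSO libraries and 75.3 between those of 0.2 μM, so all were kept as separate samples.

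The genes and lists were chosen with earlier results of these data known. Values in every library are given for genes called by edgeR or by DESeq2, for the gene with the smallest p in each role group, for the 2 genes highest per length in each class, and for pathway genes called by edgeR. The values of 1 gene are not reported here, and it is counted only in the summaries. The promoter motifs and some further genes were chosen after their values were seen. Of the integrin and laminin genes, 9 overlap no other annotated gene, and reads of an overlapping gene may be among the counts of the rest.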

Additional observations from a re-analysis of the deposited data

How the results depend on the processing

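The median log2 fold change of the integrin and laminin genes stayed between 0.27 and 0.44 under all alternatives run, and 0 of these genes were called by edgeR under each other normalization, filter, dose grouping or left-out library, which does not show that their levels did not differ. With DESeq2 3 were called, all higher, and at an adjusted p of 0.05 edgeR called 2, both higher. Among the adaptors, ligands and basement membrane partners, DESeq2 called 3, 3 and 3, edgeR with no filter 2, 2 and 2, and edgeR at an adjusted p of 0.05 called 3, 2 and 3. In the contrasts of 0.2 μM and of 0.34 μM alone 0 basement membrane partners were called. Leaving out 1 library gave 0 to 1 ligands and 0 to 1 basement membrane partners. With a replicate block on the DMSO and 0.2 μM libraries, 0 of 28 integrin and laminin genes and 3 adaptors, 4 ligands and 2 basement membrane partners were called, and 1249 of all genes, against 178 in the same 4 libraries without the block. The labels pair the libraries by number only, and the replicate differences of DMSO and 0.2 μM correlated at 0.528 over all genes and 0.550 over the integrin and laminin genes.

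Of 29 integrin and laminin genes, 12 had a log2 fold change that turned sign under an alternative, and 11 of these did so without 1 of the DMSO libraries. Leaving out 1 library gave -0.16 to 0.22 for LAMB1, -0.39 to 0.31 for ITGA5, -0.71 to 0.12 for ITGA4, -0.32 to 0.12 for ITGB1, -0.45 to 0.40 for ITGAE, -0.54 to 0.99 for ITGA2, -0.28 to 0.11 for ITGA6, -0.51 to 0.39 for ITGA9, -0.13 to 0.95 for ITGB6, -0.91 to 0.35 for ITGB8, -0.16 to 0.64 for LAMA2 and -0.40 to 0.52 for LAMA4. At 0.2 μM alone LAMB1 was -0.0066, ITGA6 0.0094 and LAMA4 -0.14, and at 0.34 μM alone ITGA5 was 0.16, ITGA2 -0.20 and ITGA9 -0.61. With the replicate block LAMB1 was -0.019, ITGAE 0.024 and LAMA4 -0.15. LAMA4 was -0.0034 with DESeq2, -0.0032 with RLE normalization and -0.022 with library size only, and ITGA9 was -0.080 with limma voom. The cause was not tested. With lengths as the union of all exons, chosen after seeing the data, the share differences were -6.11 percentage points for ITGB1 (-3.21 with MANE Select lengths), 5.78 for ITGB5 (3.05) and 12.9 for LAMB2 (11.4). Leaving out 1 library gave share differences of -5.18 to -1.24 for ITGB1, -13.3 to 1.37 for LAMA4 (-5.99 with all libraries), -2.07 to 12.03 for LAMA5 (4.98) and 0.040 to 1.36 for LAMC1 (0.702). The number of libraries and the spread between those of one treatment limit which differences can pass the test. Counts under about 100 add counting error for LAMC3, LAMA3, ITGA2B, ITGA9, ITGB6 and LAMA2, and for ITGB2 in DMSO.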
